A study of Homo sapiens with 4 samples.

Results

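The nuclear genes of the mitochondrial respiratory chain were examined in HCC1954 cells, a human breast cancer line, after depletion of ZDHHC15, a palmitoyltransferase that attaches palmitate to proteins. Members were the protein-coding genes whose symbols begin with NDUF, SDHAF, UQCR, ATP5 or COX followed by a digit, together with SDHA, SDHB, SDHC and SDHD. This rule took 112 of the 58735 genes in the count table, of which 48 belong to complex I, 8 to complex II, 9 to complex III, 26 to complex IV and 21 to complex V. The structural genes numbered 87, the assembly factors (NDUFAF, SDHAF and COX10 to COX20) 21, and 4 genes were neither: the readthroughs NDUFC2-KCTD14 and ATP5MF-PTCD1, the inhibitor ATP5IF1 and ATP5S. The rule uses symbols and biotypes only. The control group (shCON, 2 samples) carried a scrambled short hairpin RNA and the depleted group (shZDHHC15, 2 samples) a GIPZ hairpin against ZDHHC15. All 4 samples were the same line in the same medium, with serum and antibiotics. The labels describe a stable knockdown in the design and transient plasmid transfection, harvested after 36 h, in the protocol, and whether samples 1 and 2 were repeat cultures or different hairpins is not given. The p-values therefore measure the spread between these samples, which may be technical.

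The respiratory chain sits in the inner mitochondrial membrane. Complexes I and II pass electrons from NADH and succinate to ubiquinone, complex III hands them on to cytochrome c, complex IV reduces oxygen, and complex V uses the resulting proton gradient to make ATP. Most subunits are encoded in the nucleus and imported, a few central ones are encoded in mitochondrial DNA, and dedicated assembly factors insert cofactors and join the parts. Carcinoma cells often rely on glycolysis beside respiration, and most keep all 5 complexes.

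Counts on genes summed to between 17560982 and 19118704 per sample. ZDHHC15, the targeted gene, was counted 17617 and 15716 times in shCON and 0 times in both shZDHHC15 libraries. The breast epithelial markers ERBB2, KRT8, KRT18, KRT19, CDH1 and EPCAM were all present, and their summed level was 13604 and 14611 CPM in shCON and 7992 and 7966 CPM in shZDHHC15. CPM are counts scaled to a common library size with TMM factors, edgeR's correction for library composition, and pairs of values give samples 1 and 2, with shCON first. Gene positions are those of GENCODE 29 on GRCh38. Most of the gap in the epithelial sum lay in the keratins KRT8, at 5775 and 6342 CPM in shCON against 1853 and 2085 CPM in shZDHHC15, and KRT18, at 1569 and 1715 CPM against 513 and 583 CPM. ERBB2 and EPCAM were also below both controls, CDH1 overlapped between the groups at 378 and 353 CPM against 360.5 and 347 CPM, and KRT19 was above both controls, at 18.8 and 20.1 CPM against 27.02 and 25.8 CPM. The 3 endothelial markers summed to 48.4 and 49.98 CPM in shCON and 102 and 96.7 CPM in shZDHHC15, with VWF at 0 to 7 counts, the 5 fibroblast markers to at most 11.5 CPM and the 5 leukocyte markers to at most 1.93 CPM, with CD3E and LUM at 0 counts in all 4 samples. Their part in the results below was not tested. A lower level in bulk RNA cannot tell less RNA in every cell from fewer cells with a high level.

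Most of the nuclear respiratory chain genes were lower in ZDHHC15-depleted cells. Of the 112 members, 104 had enough counts to be tested, and 65 of these were lower and 2 higher at an adjusted p under 0.05 from edgeR's quasi-likelihood test. Among all 15817 genes tested, 20.3% were called lower and 21.7% higher. The median log2 fold change (shZDHHC15 over shCON) was -0.38 for the members, with the middle 50% between -0.54 and -0.18, and 0.02 for all genes tested. In 79 members both shZDHHC15 samples lay below both shCON samples, in 8 both lay above, and in 17 the groups overlapped, against 35.3% of all tested genes with no overlap in the lower and 37.2% in the higher direction. The called decreases ran from 0.26 to 1.87 on the log2 scale, 17 of them were larger than 0.585, and 1 of them, COX7B2, was larger than 1. The median of the members was -0.37 without shZDHHC15 replicate 1 and -0.38 without shZDHHC15 replicate 2. It was -0.29 without shCON replicate 2 and -0.48 without shCON replicate 1. The number of calls changed in these fits for the members and for all genes. The median of all genes tested was 0.02 without shCON replicate 1 and 0.009 without shCON replicate 2. The members' median minus that of all genes was -0.50 and -0.30 in these 2 fits, and -0.40 with all samples. Both higher calls, NDUFS1 and UQCRC2, were lost without shZDHHC15 replicate 1. Over 8 alternative processing settings that keep all samples and the 4 fits that leave out a sample, 33 of the 65 lower members lost the call at least once and 13 members that were not called passed the test at least once. The call was lost under 2 or more of the 8 alternatives for 16 lower members, namely NDUFV1, NDUFS3, NDUFA6, NDUFB3, NDUFAF2, SDHB, SDHC, SDHAF1, SDHAF2, UQCRC1, UQCRHL, COX5A, COX6B1, COX7A2L, COX10 and ATP5PO.

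The 112 genes together took 0.910% and 1.01% of all counts in the shCON samples and 0.789% and 0.794% in the shZDHHC15 samples. The shZDHHC15 samples were close to each other and below both controls, whereas the controls differed between themselves. Per complex, the mean share was lower by 16.3% for complex I, 5.71% for complex II, 12.7% for complex III, 21.7% for complex IV and 20.8% for complex V. The size for complexes I and III rested on shCON replicate 2, without which the shares were lower by 10.6% and 7.31%, and that for complex II on the shZDHHC15 samples, at 8.56% without replicate 1 and 2.85% without replicate 2. Complex I took 0.261% and 0.296% of counts in shCON and 0.232% and 0.235% in shZDHHC15, and complex III 0.1115% and 0.1253% against 0.1042% and 0.1025%. The shares of complex II lay nearest together, at 0.0715% and 0.0722% in shCON and 0.0698% and 0.0657% in shZDHHC15. For complex V the shares were 0.274% and 0.301% in shCON and 0.225% and 0.230% in shZDHHC15.

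**Figure D1:**
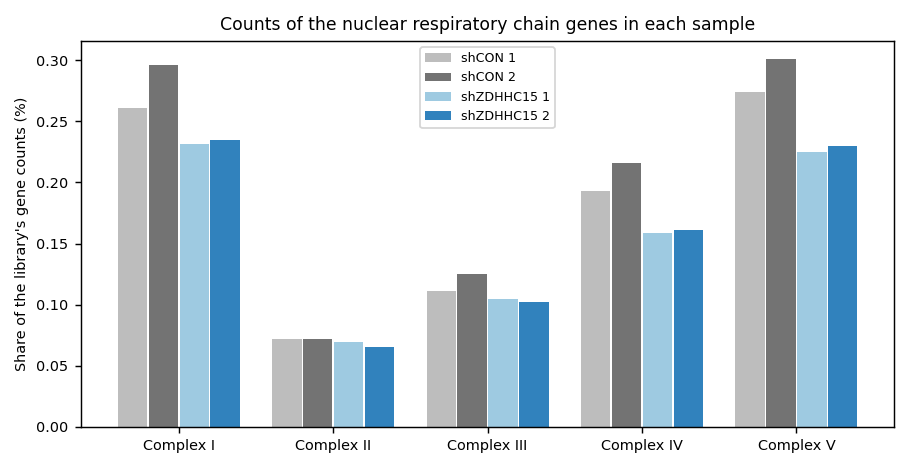
Bars give the share (percent, from 0) of each library's gene counts that fell on the members of complexes I to V, with a bar for each of the 2 shCON and 2 shZDHHC15 samples. In each complex both shZDHHC15 bars are below both shCON bars, by the smallest margin in complex II (0.0698% and 0.0657% against 0.0715% and 0.0722%).

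The shCON samples differed from each other in these genes. In 87 of the 104 tested members shCON 2 was above shCON 1, with a median log2 difference of 0.17, whereas the median difference of all tested genes between these samples was -0.0019. Short protein-coding genes also had a positive median. Under 1500 bases it was 0.16, beside 0.21 for the members, and from 1500 to 2499 bases 0.12 beside 0.19. From 2500 to 4999 bases it was 0.05 beside 0.16, and at 5000 bases or more -0.07 beside 0.12. Between the shZDHHC15 samples the median difference of the members was 0.0044, with 54 of 104 higher in shZDHHC15 2. For 18 members the difference between the controls was larger than the fold change between groups. The median log2 fold change of the members was -0.48 without shCON replicate 1 and -0.29 without shCON replicate 2.

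Complex I, the NADH dehydrogenase, had 47 tested members. Of these, 24 were lower (51.1%) and 1 was higher (2.13%), beside 20.3% and 21.7% of all tested genes. The other 22 were not called, and the median log2 fold change of the 47 was -0.35. This median was -0.22 without shCON replicate 2 and -0.48 without shCON replicate 1. Its 7 nuclear core subunits form the electron path from NADH to ubiquinone, with the flavin and the iron-sulphur clusters, and they went in both directions. NDUFS1, which encodes the largest iron-sulphur subunit of the matrix arm (chromosome 2, 206114817 to 206159603), was measured at 65.99 and 60.5 CPM in shCON and 85.7 and 81.2 CPM in shZDHHC15. Both shZDHHC15 values were above both controls, and the gene was called higher (log2 fold change 0.40, SE 0.10, adjusted p = 0.00571). A stretch of 277 bases of NDUFS1 is near-identical to the pseudogene GCSHP5, which had 497 counts over the 4 samples. NDUFS8, which carries iron-sulphur clusters near the ubiquinone site (chromosome 11, 68030617 to 68036644), had 126 and 143 CPM in shCON and 85.1 and 98.5 CPM in shZDHHC15, and it had the lowest value among the core subunits (log2 fold change -0.55, SE 0.11, adjusted p = 0.000796). NDUFV1, the NADH and flavin binding subunit, fell from 153 and 181 CPM to 129 and 138 CPM (log2 fold change -0.32, SE 0.10, adjusted p = 0.0208). NDUFS7 and NDUFS3 were also lower, with log2 fold changes of -0.42 and -0.35 (adjusted p = 0.0154 and 0.018), and other genes overlap 49.1% and 22.4% of their exonic bases. NDUFV2 had only 33 to 69 counts per sample, and was not called (log2 fold change 0.61, SE 0.27, adjusted p = 0.0855).

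Accessory subunits surround this core and are needed for its stability. In complex I, 17 of the 31 were lower (54.8%) and 0 higher, beside 20.3% and 21.7% of all tested genes. Their median was -0.38. NDUFC1, a small membrane arm subunit (chromosome 4, 139266880 to 139302551), had the lowest value. It was at 35.7 and 36.9 CPM in shCON and 19.9 and 22.3 CPM in shZDHHC15 (log2 fold change -0.78, SE 0.12, adjusted p = 0.000133), and both controls were nearly equal. NDUFA1, the X-linked subunit of the membrane arm, was at 36.5 and 52.2 CPM and 26.00 and 28.8 CPM (log2 fold change -0.69, SE 0.15, adjusted p = 0.00199), with shCON 2 well above shCON 1. RNF113A overlaps 44.5% of the exonic bases of NDUFA1 on the opposite strand and had 1125 counts over the 4 samples. NDUFS6, a zinc-binding subunit, was the most abundant member of the complex per length. Its level was 223 and 298 RPKM, which is CPM per kilobase of exon, in shCON against 181 and 176 RPKM in shZDHHC15, and it fell by 0.55 on the log2 scale (SE 0.12, adjusted p = 0.0016). All 11 NDUFB subunits of the membrane arm had a negative log2 fold change and 6 of them were called lower, among them NDUFB7 (-0.60), NDUFB2 (-0.54) and NDUFB10 (-0.54). Of all 15817 tested genes, 7724 had a negative value. Other genes overlap 35.9% of the exonic bases of NDUFB2. NDUFB4, NDUFB1, NDUFB5, NDUFB6 and NDUFB8 were not called, with values from -0.48 to -0.04.

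At the other end, 6 accessory subunits of complex I had positive values and none was called. NDUFA13 and NDUFA7 rested on 17 to 48 and 10 to 26 counts per sample. NDUFA10, which belongs to the nucleoside kinase family, was at 85.7 and 87.7 CPM in shCON and 104 and 100.4 CPM in shZDHHC15, with no overlap (log2 fold change 0.24, SE 0.10, adjusted p = 0.06). It was called higher with library size only, with at least 10 counts in every sample and with the replicate block (smallest adjusted p = 0.0169, largest over the 12 alternatives 0.306). NDUFA5, a subunit of the matrix arm, was at 28.7 and 22.4 CPM and 31.2 and 28.7 CPM with overlapping groups (log2 fold change 0.23, SE 0.14, adjusted p = 0.202). NDUFA4 stands in complex I by its symbol, although it is now regarded as a subunit of complex IV. It was at 67.1 and 75.2 CPM and 82.7 and 78.3 CPM (log2 fold change 0.18, SE 0.10, adjusted p = 0.186), above the controls but not called, whereas the other ubiquitous subunits of complex IV all had negative values. Its isoform gene NDUFA4L2, known to be induced by hypoxia, was barely detected, with 17 and 16 counts in shCON and 6 and 10 in shZDHHC15 (log2 fold change -1.16, SE 0.50, adjusted p = 0.0775). Counting both genes with complex IV left the medians of complexes I and IV at -0.35 and -0.43.

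Of the 8 assembly factors of complex I, 3 were lower (37.5%) and 0 higher, beside 20.3% and 21.7% of all tested genes. NDUFAF4, which acts early in building the matrix arm, was at 18.4 and 17.6 CPM in shCON and 9.88 and 11.7 CPM in shZDHHC15 (log2 fold change -0.74, SE 0.15, adjusted p = 0.00119). NDUFAF8, the partner of NDUFAF5, was at 58.5 and 74.05 CPM and 38.4 and 45.5 CPM (log2 fold change -0.66, SE 0.13, adjusted p = 0.000907). NDUFAF2, a paralog of NDUFA12, fell less (log2 fold change -0.40, SE 0.14, adjusted p = 0.0298). NDUFAF5, a hydroxylase that modifies NDUFS7, was at 11.1 and 11.2 CPM and 11.2 and 12.7 CPM with overlapping groups (log2 fold change 0.10, SE 0.16, adjusted p = 0.635). NDUFAF1, NDUFAF3, NDUFAF6 and NDUFAF7 were not called, with values of -0.26, -0.10, -0.03 and -0.01.

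**Figure D2:**
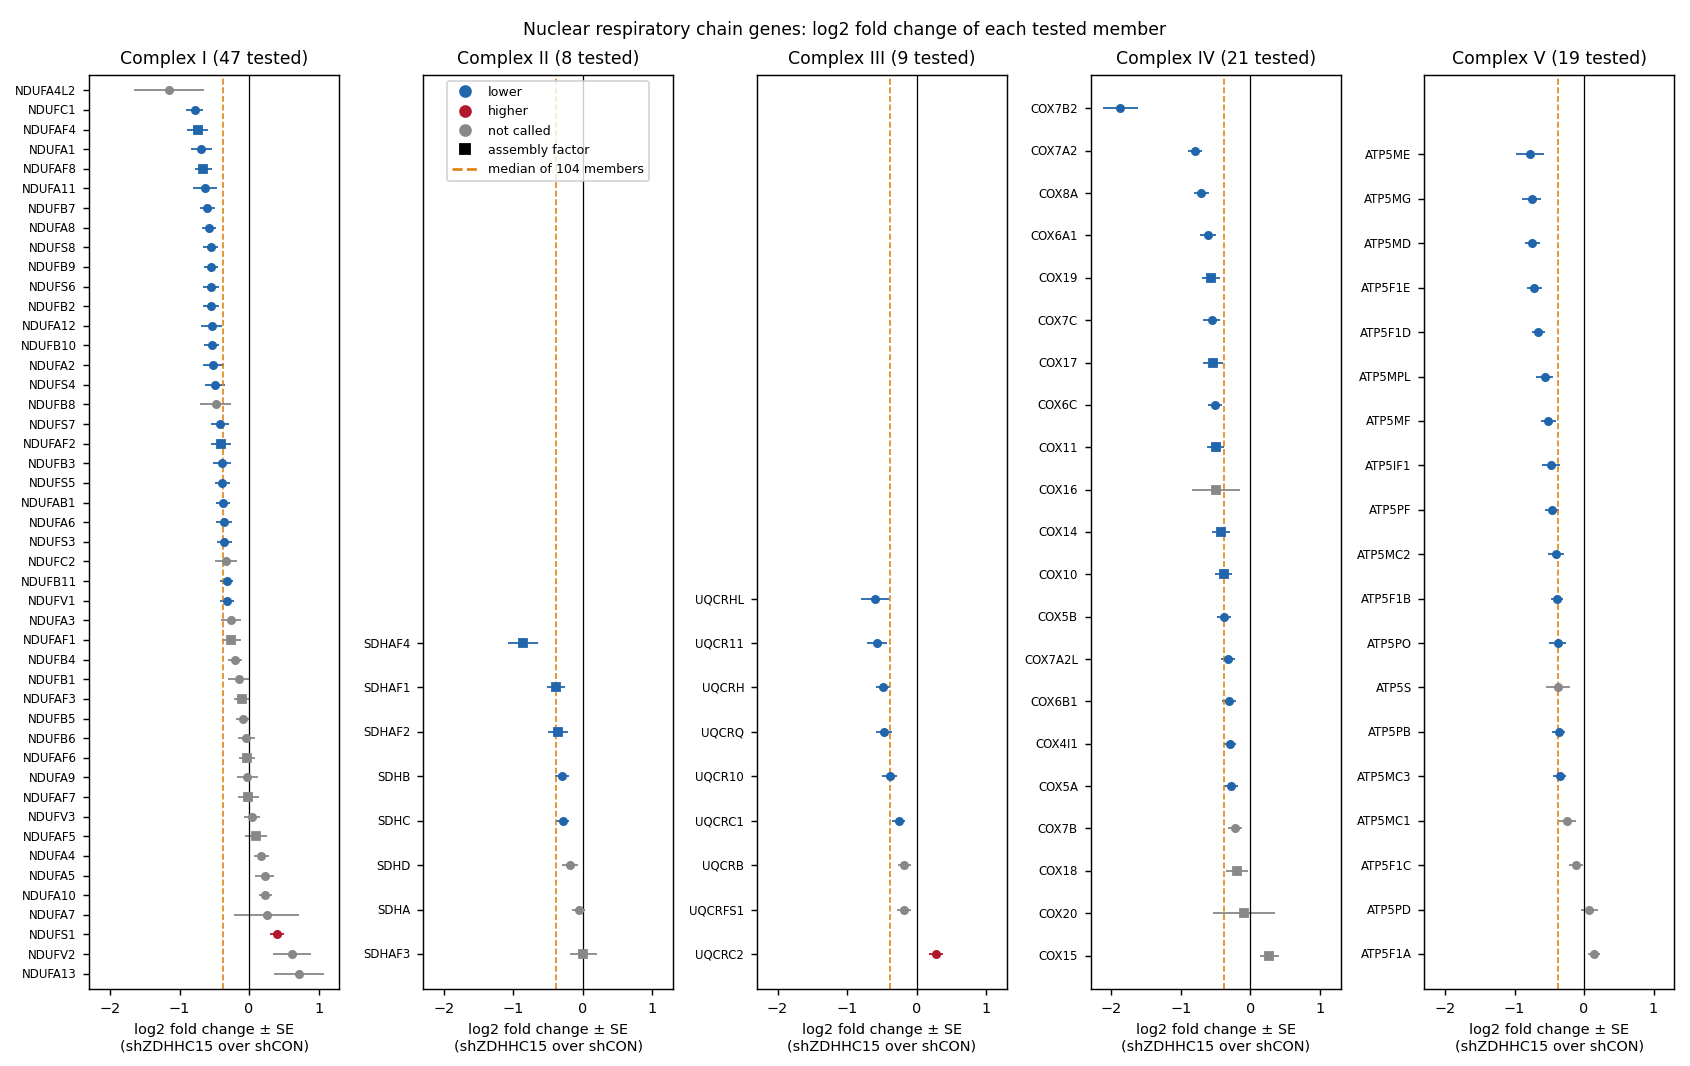
Each point is the log2 fold change (shZDHHC15 over shCON) of a tested member with its standard error, in a panel per complex (1 member of complex I is not shown), with squares for assembly factors and the dashed line at the median of the 104 tested members (-0.38). Blue marks lower, red higher and grey not called at an adjusted p of 0.05; most points lie left of 0, COX7B2 lies farthest left at -1.87, and the red points are NDUFS1 (0.40) and UQCRC2 (0.28).

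Complex II, succinate dehydrogenase, has 4 subunits that all come from the nucleus. Of these, 2 were lower and 0 higher, beside 20.3% and 21.7% of all tested genes. SDHB, the iron-sulphur subunit (chromosome 1, 17018722 to 17054170), was at 74.4 and 79.1 CPM in shCON and 63.4 and 60.8 CPM in shZDHHC15 (log2 fold change -0.31, SE 0.10, adjusted p = 0.0239). SDHC, a membrane anchor, was at 115 and 124 CPM and 98.6 and 97.1 CPM (log2 fold change -0.29, SE 0.10, adjusted p = 0.0228). SDHA, the flavoprotein that oxidises succinate (chromosome 5, 218241 to 256700), was the most abundant member of the complex and was at 409.8 and 415 CPM and 412 and 378 CPM. These groups overlapped (log2 fold change -0.06, SE 0.09, adjusted p = 0.609). SDHD, the other anchor, had 43.9 and 43.7 CPM and 40.8 and 36.4 CPM, with no overlap and no call (log2 fold change -0.18, SE 0.11, adjusted p = 0.212), and 3 near-identical copies of it elsewhere had 67 counts in all. The calls for SDHB and SDHC were each lost under 2 of the 8 alternatives that keep all samples and under 3 of the 4 fits that left out a sample.

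Among the factors that assemble complex II, SDHAF4, which binds flavinated SDHA, fell the most. It received 128 and 122 counts in shCON and 83 and 66 counts in shZDHHC15, or 7.02 and 7.23 CPM and 4.46 and 3.36 CPM (log2 fold change -0.87, SE 0.22, adjusted p = 0.00484). SDHAF1, which serves SDHB, and SDHAF2, which promotes the attachment of flavin to SDHA, were lower by 0.39 and 0.36 on the log2 scale (adjusted p = 0.0262 and 0.0477). Another gene overlaps 30.5% of the exonic bases of SDHAF2. The call for SDHAF2 was lost under 4 of the 8 alternatives that keep all samples and 3 of the 4 fits without a sample, and that for SDHAF1 under 2 of the 8 and 2 of the 4. SDHAF3 had 309 and 178 counts in shCON, wider apart than any other member of the complex, and 242 and 289 counts in shZDHHC15 (log2 fold change 0.006, SE 0.19, adjusted p = 0.985).

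Complex III, the cytochrome bc1 complex, had 9 tested members, of which 6 were lower, 1 was higher and 2 were not called. The groups did not overlap in any of the 9, with 8 in the lower and 1 in the higher direction. Over all tested genes 35.3% had no overlap in the lower and 37.2% in the higher direction, and 20.3% were called lower and 21.7% higher. UQCRC1 and UQCRC2 encode its paired core proteins and moved apart. UQCRC1 (chromosome 3, 48599002 to 48610976) was at 321 and 362 CPM in shCON and 291 and 281 CPM in shZDHHC15 (log2 fold change -0.26, SE 0.09, adjusted p = 0.0364). UQCRC2 (chromosome 16, 21952660 to 21983660) was at 40.2 and 40.5 CPM and 49.1 and 48.8 CPM (log2 fold change 0.28, SE 0.11, adjusted p = 0.0471), a call lost under 5 of the 8 alternatives that keep all samples and whenever a sample was left out. UQCRFS1, the Rieske iron-sulphur protein, was at 117 and 137 CPM and 111 and 113 CPM (log2 fold change -0.18, SE 0.10, adjusted p = 0.175). Of the small subunits, UQCR11 (-0.57), UQCRH (-0.48), UQCRQ (-0.47) and UQCR10 (-0.39) were lower, and UQCRB (-0.18), which lines the quinone site, was not called.

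UQCRH, the hinge protein that helps cytochrome c dock, has an intronless copy, UQCRHL, that counts as a gene of its own, and the coding sequences of both differ at 4 of 273 bases. Their last 126 coding bases are shown because all 4 differences fall there, and the longest identical run of 157 bases lies before the first of them, so that reads from the first part cannot be assigned by sequence. Capitals mark the bases that differ (GENCODE 29 transcripts on GRCh38, coding strand, UQCRH at chromosome 1, plus strand, exons within 46310221 to 46316581, and UQCRHL at chromosome 1, minus strand, 15807377 to 15807502).
UQCRH: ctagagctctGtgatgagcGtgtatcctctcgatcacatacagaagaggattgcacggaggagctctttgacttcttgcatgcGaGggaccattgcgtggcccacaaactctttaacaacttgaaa
UQCRHL: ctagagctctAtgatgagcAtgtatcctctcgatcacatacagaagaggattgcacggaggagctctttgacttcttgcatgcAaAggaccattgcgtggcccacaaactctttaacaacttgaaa
UQCRH received 2661, 2935, 2120 and 2251 counts and UQCRHL 148, 123, 106 and 88 counts, in the order shCON 1, shCON 2, shZDHHC15 1 and shZDHHC15 2. Both fell, UQCRH by 0.48 (SE 0.10, adjusted p = 0.00159) and UQCRHL by 0.60 on the log2 scale (SE 0.20, adjusted p = 0.0267), and the counts of UQCRHL are uncertain because they may include reads of UQCRH.

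Complex IV, cytochrome c oxidase, is listed here with 17 nuclear structural genes, of which 12 were tested. All 12 had a lower level in both shZDHHC15 samples than in both controls, beside 35.3% of all tested genes. Of the 12, 11 were called lower, beside 20.3% of all tested genes, with a median of -0.45. COX8A, the most abundant member per length of all 112 (chromosome 11, 63974607 to 63976543), was at 431 and 534 RPKM in shCON and 296 and 296 RPKM in shZDHHC15 (log2 fold change -0.70, SE 0.11, adjusted p = 9.98e-05). AP000721.1 overlaps 34.5% of the exonic bases of COX8A on the same strand and had 0 counts over the 4 samples. COX7A2 (chromosome 6, 75237675 to 75250323), the form of subunit VIIa outside muscle, was at 113 and 128 CPM and 69.5 and 69.6 CPM (log2 fold change -0.79, SE 0.10, adjusted p = 2.29e-05), the smallest adjusted p among the members. Its relative COX7A2L, which links complexes III and IV in supercomplexes, fell from 75.8 and 81.3 CPM to 61.5 and 64.3 CPM (log2 fold change -0.32, SE 0.10, adjusted p = 0.0192). COX4I1 and COX5A, the nuclear subunits that join the core first, fell by 0.29 and 0.28 on the log2 scale (adjusted p = 0.0155 and 0.0309). COX7B was the exception, at 77.2 and 87.9 CPM and 69.98 and 71.6 CPM (log2 fold change -0.22, SE 0.10, adjusted p = 0.1).

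Several subunits of complex IV exist as tissue forms, and HCC1954 cells counted almost only the ubiquitous ones. COX4I2 and COX6A2, the forms of lung and of muscle and heart, had 0 counts in all 4 samples, where a count of 0 allows up to 3, COX8C had 0 to 3, COX7A1 1 to 5 and COX6B2, a testis form, 4 to 7, and none of these was tested. COX7B2 (chromosome 4, 46734827 to 46909235), a paralog of COX7B known mainly from testis, was detected and had the largest change of any tested member. It received 124 and 105 counts in shCON and 37 and 31 in shZDHHC15, or 6.80 and 6.22 CPM and 1.99 and 1.58 CPM (log2 fold change -1.87, SE 0.25, adjusted p = 3.62e-05). Leaving out single samples gave -2.04 to -1.72, and the gene was called in all 12 alternatives. Per length, COX7B2 made up 24.8% and 21.0% of COX7B and COX7B2 together in shCON and 9.62% and 7.64% in shZDHHC15. No other gene overlaps its exons and no near-identical copy was found.

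**Figure D3:**
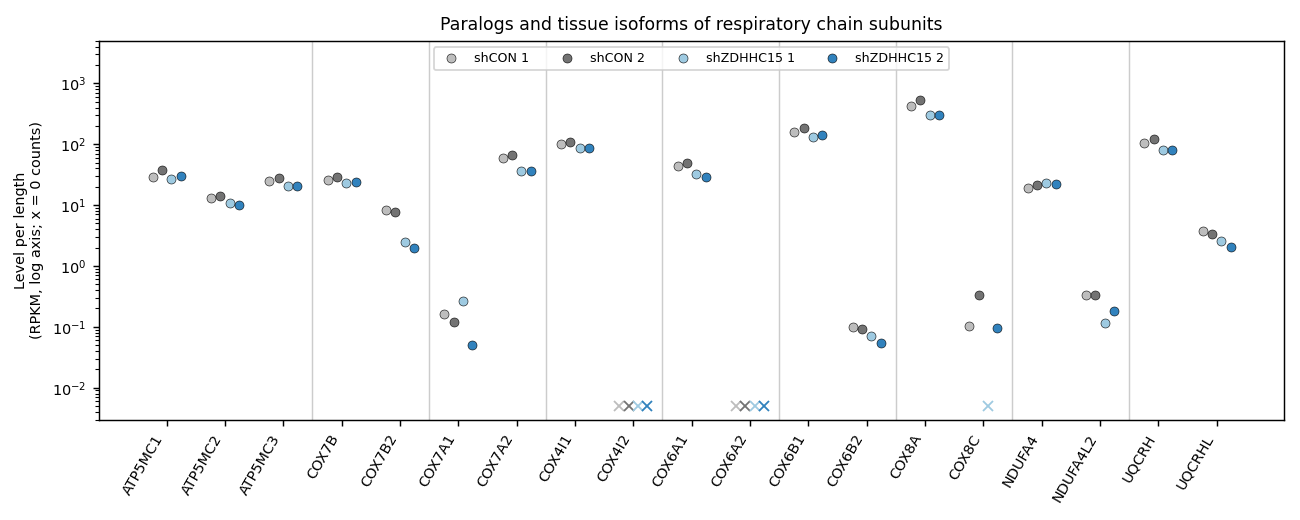
Points give the level per length (RPKM, log axis) of paralogs and tissue forms in each of the 4 samples, grouped by family between the vertical lines, with crosses for 0 counts. The COX7B2 points of shZDHHC15 (2.46 and 1.96) stand apart from those of shCON (8.43 and 7.71), while COX7B stays between 23.1 and 29.1 in all 4 samples.

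Of the 9 COX assembly factors, 5 were lower (55.6%) and 0 higher, beside 20.3% and 21.7% of all tested genes. COX17, which carries copper to the complex, was at 31.98 and 44.6 CPM in shCON and 26.7 and 25.98 CPM in shZDHHC15 (log2 fold change -0.54, SE 0.15, adjusted p = 0.00836). COX11, which takes part in building a copper site, fell by 0.50 on the log2 scale (adjusted p = 0.00427). COX19, another copper-handling protein, fell by 0.57 (adjusted p = 0.00293), and COX14, a binding partner of newly made COX1, by 0.43 (adjusted p = 0.0167). ADAP1 overlaps 21.4% of the exonic bases of COX19 on the same strand and had 893 counts over the 4 samples. COX10 and COX15 act in turn in the synthesis of haem A and had opposite signs. COX10, which adds the farnesyl group, was at 28.96 and 29.8 CPM and 23.1 and 21.9 CPM (log2 fold change -0.39, SE 0.12, adjusted p = 0.0191), whereas COX15, which oxidises the product, was at 16.9 and 15.9 CPM and 19.7 and 20.1 CPM and was not called (log2 fold change 0.27, SE 0.13, adjusted p = 0.115). COX18, an insertase for COX2, was not called (-0.20), and COX16 and COX20 rested on 13 to 35 counts per sample.

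Beside 20.3% lower and 21.7% higher of all tested genes, complex V, the ATP synthase, had 14 of 19 tested members lower and 0 higher. The other 5 were not called, and the median of the complex was -0.40. Its catalytic head consists of subunits alpha to epsilon, encoded by ATP5F1A to ATP5F1E, and these spread from no call to some of the largest decreases. ATP5F1B, the catalytic beta subunit (chromosome 12, 56638175 to 56646068), was the most abundant of the complex per length, at 672 and 712 CPM in shCON and 521 and 539 CPM in shZDHHC15 (log2 fold change -0.38, SE 0.09, adjusted p = 0.00229). ATP5F1A, its alpha partner (chromosome 18, 46080248 to 46104334), was at 261 and 261 CPM and 301 and 276 CPM (log2 fold change 0.14, SE 0.09, adjusted p = 0.213), with both shZDHHC15 values above the controls and no call. ATP5F1C, the central stalk gamma subunit, had 74.05 and 74.9 CPM and 70.9 and 66.4 CPM (log2 fold change -0.12, SE 0.10, adjusted p = 0.371). The 2 other subunits of the central stalk had lower values than beta, a difference that was not tested. ATP5F1D was at 132 and 139 CPM and 82.7 and 89.2 CPM (log2 fold change -0.66, SE 0.10, adjusted p = 8.06e-05), and ATP5F1E at 552 and 691 CPM and 368 and 388 CPM (log2 fold change -0.72, SE 0.10, adjusted p = 7.74e-05), although TUBB1 overlaps 23.2% of the exonic bases of ATP5F1E on the opposite strand.

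The membrane and side stalk subunits of complex V were mostly lower. ATP5ME, ATP5MG and ATP5MD, which support the dimer of the enzyme in the membrane, had log2 fold changes of -0.78, -0.75 and -0.74 (adjusted p = 0.00621, 0.00048 and 5.18e-05). ATP5ME is uncertain, since MYL5 overlaps 61.6% of its exonic bases on the opposite strand and its shCON samples were far apart at 17.9 and 29.5 CPM. ATP5PF, ATP5PB and ATP5PO of the side stalk were lower by 0.47, 0.36 and 0.38 on the log2 scale (adjusted p = 0.00176, 0.0059 and 0.0238). Other genes overlap 23.1%, 10.3% and 25.4% of their exonic bases. ATP5PD, also of the side stalk, was at 47.2 and 52.5 CPM and 46.99 and 57.9 CPM with overlapping groups (log2 fold change 0.08, SE 0.12, adjusted p = 0.649). ATP5IF1, the inhibitor that blocks ATP hydrolysis, was at 59.95 and 82.3 CPM and 52.5 and 49.9 CPM (log2 fold change -0.47, SE 0.13, adjusted p = 0.01). ATP5S, which has been renamed as an assembly factor in RefSeq, was not called (-0.37), and ATP5MGL was at 0 counts in all samples.

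The ring of c subunits that turns with proton flow is encoded by 3 genes, ATP5MC1, ATP5MC2 and ATP5MC3, whose last 75 codons give the same protein from different DNA. The start of this shared part, 40 codons long, is shown for each gene because it holds the bases by which reads of the 3 genes can be told apart. Capitals mark the 24 of 120 bases at which at least 1 of the 3 genes differs (GENCODE 29 transcripts on GRCh38, coding strand, ATP5MC1 at chromosome 17, plus strand, within 48895222 to 48895661, ATP5MC2 at chromosome 12, minus strand, within 53665422 to 53669260, and ATP5MC3 at chromosome 2, minus strand, within 175178396 to 175179169).
ATP5MC1: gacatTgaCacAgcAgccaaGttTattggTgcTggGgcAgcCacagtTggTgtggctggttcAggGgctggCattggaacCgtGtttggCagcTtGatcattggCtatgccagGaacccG
ATP5MC2: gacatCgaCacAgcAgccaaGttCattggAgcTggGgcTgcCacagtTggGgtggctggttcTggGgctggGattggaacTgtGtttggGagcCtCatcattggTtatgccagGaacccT
ATP5MC3: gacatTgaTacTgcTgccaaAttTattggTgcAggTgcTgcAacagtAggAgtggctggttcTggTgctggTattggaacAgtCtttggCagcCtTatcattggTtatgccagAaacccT
Over the whole shared part 52 of 225 bases differ and no identical run between any pair is longer than 17 bases. ATP5MC1 was at 75.6 and 99.3 CPM in shCON and 70.1 and 77.5 CPM in shZDHHC15, with overlapping groups (log2 fold change -0.24, SE 0.12, adjusted p = 0.13). ATP5MC2 was at 52.99 and 56.3 CPM and 42.9 and 39.7 CPM (log2 fold change -0.40, SE 0.11, adjusted p = 0.00771), and ATP5MC3 at 171 and 188 CPM and 141 and 139.8 CPM (log2 fold change -0.35, SE 0.09, adjusted p = 0.0076). Per length, ATP5MC1 made up 42.9% and 47.6% of the 3 genes in shCON and 45.9% and 49.2% in shZDHHC15, so that the ranges overlapped.

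By role, 10 of the 19 core subunits were lower and 2 higher (median -0.26), 41 of the 59 accessory subunits were lower and 0 higher (-0.39), and 11 of the 21 assembly factors were lower and 0 higher (-0.39). The difference between these roles was not tested, and over all tested genes 20.3% were lower and 21.7% higher. The median exonic length in the table was 3670 bases for core subunits, 1999 for accessory subunits and 2492 for assembly factors.

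The members were short genes, and the change of all genes moved with length. Over all tested genes, ranked by exonic length and divided into 10 equal bins, the median log2 fold change went from -0.18 in the shortest bin and -0.22 in the next to 0.32 in the longest. The same bins differed between the controls, with a median log2 difference of shCON 2 over shCON 1 from 0.07 and 0.10 to -0.16. Among members shorter than 1500 bases, 27 of 29 were lower with a median of -0.48, beside 43.7% lower and a median of -0.33 for the 510 tested protein-coding genes of that length. Between 1500 and 2499 bases, 15 of 24 members were lower (median -0.47), beside 38.2% and -0.26. Between 2500 and 4999 bases, 15 of 29 were lower (median -0.33), beside 26.3% and -0.08. At 5000 bases or more, 8 of 22 were lower and 2 higher (median -0.13), beside 14.3% lower and a median of 0.15. In each of these 4 ranges the members' median was below that of protein-coding genes of similar length, and their own median rose with length. Spearman's rho between length and log2 fold change was 0.465 over the 104 members, which share their libraries and whose length includes every annotated exon, and 0.245 over all tested genes. With abundance the members showed little relation (rho = -0.0107). Over all tested genes in 10 bins of mean log2 CPM, the share called lower rose with abundance. It was 6.64% in bin 1 and 27.6%, 30.7% and 40.3% in bins 8, 9 and 10. In bins 8, 9 and 10, 14 of 22, 14 of 19 and 13 of 16 members were called lower. The part of length or abundance in the members' decrease was not tested.

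Promoters of respiratory chain genes are known for sites of the factors NRF1, GABPA of the ETS family, and YY1. The words GCGCATGC (NRF1), CCGGAAG (ETS) and AAGATGG (YY1) were searched on both strands of RefSeq promoter windows (GRCh38.p14, 250 bases before to 50 after the start), which were found for 92 members. GCGCATGC stood in 19.6% of the members' windows and in 3.27% of all 27305 windows (5.49% of those of tested genes), CCGGAAG in 28.3% against 10.7% (18.7%), and AAGATGG in 18.5% against 6.06% (7.24%). At least 1 word was found in 18.2% of all windows, in 28.0% of those of tested genes and in 48.9% of the members' windows. Among the members it was 56.4% of the 55 lower ones with a window, 38.7% of the 31 that were not called, and both of the 2 higher ones. These shares describe letters in a window, with no test. The 150 bases before the start are shown for 4 members that hold several words there, SDHAF2 and ATP5PF, which were lower, and SDHD and ATP5F1C, which were not called, so that the words can be compared beside different values. Capitals mark the words, which in SDHAF2 overlap by a base where CCGGAAG and GCGCATGC meet on the other strand, and in SDHD and ATP5F1C form a run in which GCGCATGC reads on both strands.
SDHAF2 (chr11:61429974-61430123, plus strand): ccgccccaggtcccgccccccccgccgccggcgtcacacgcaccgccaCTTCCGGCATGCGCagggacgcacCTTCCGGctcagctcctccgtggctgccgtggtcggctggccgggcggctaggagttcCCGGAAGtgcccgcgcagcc
ATP5PF (chr21:25735055-25735204, minus strand): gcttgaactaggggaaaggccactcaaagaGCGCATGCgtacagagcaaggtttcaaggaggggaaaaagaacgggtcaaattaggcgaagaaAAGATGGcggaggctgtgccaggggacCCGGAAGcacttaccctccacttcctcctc
SDHD (chr11:112086723-112086872, plus strand): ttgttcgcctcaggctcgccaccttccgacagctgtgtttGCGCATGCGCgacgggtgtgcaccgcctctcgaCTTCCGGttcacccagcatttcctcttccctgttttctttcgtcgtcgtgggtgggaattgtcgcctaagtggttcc
ATP5F1C (chr10:7788027-7788176, plus strand): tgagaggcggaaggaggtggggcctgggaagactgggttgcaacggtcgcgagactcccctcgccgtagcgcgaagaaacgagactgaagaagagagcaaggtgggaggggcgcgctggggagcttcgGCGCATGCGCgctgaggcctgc
SDHAF2 and ATP5PF had log2 fold changes of -0.36 and -0.47, and SDHD and ATP5F1C of -0.18 and -0.12. The exons of ATP5PF overlap those of GABPA on the opposite strand over 20.2% of their bases, and GABPA itself was at 32.6 and 25.7 CPM in shCON and 35.3 and 28.8 CPM in shZDHHC15 (log2 fold change 0.13, SE 0.14, adjusted p = 0.479).

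The genes that regulate this programme were read from a list of 21, written with earlier results of these data known. Of these, 9 were lower (42.9%) and 2 higher (9.52%), beside 20.3% and 21.7% of all genes tested (median -0.16). MYC had the lowest value, from 637 and 684 CPM to 322 and 387 CPM (log2 fold change -0.90, SE 0.10, adjusted p = 6.18e-06). PPARGC1B, a coactivator of mitochondrial genes, had the highest, from 7.84 and 5.93 CPM to 15.8 and 17.3 CPM (log2 fold change 1.26, SE 0.17, adjusted p = 4.38e-05). Of the factors whose words were searched, NRF1 was lower, at 23.7 and 25.7 CPM and 17.5 and 14.6 CPM (log2 fold change -0.62, SE 0.14, adjusted p = 0.00228), and YY1 and GABPA were not called (-0.10 and 0.13). GABPB1 was lower (log2 fold change -0.51, SE 0.13, adjusted p = 0.00578), and GABPB2 was not called (-0.28). PPRC1 was lower as well (log2 fold change -0.36, SE 0.11, adjusted p = 0.0165). These and the other lower genes, TFB2M, POLRMT, TWNK, ESRRA and TFAM, are named after their values were seen. HIF1A, the oxygen-regulated factor and the other gene of the list that was higher, is named after its values were seen (log2 fold change 0.66, SE 0.11, adjusted p = 0.000219).

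The 13 subunits encoded in mitochondrial DNA combine with the nuclear ones in complexes I, III, IV and V. They had 2 lower (15.4%) and 4 higher (30.8%), beside 20.3% and 21.7% of all genes tested, with a median of 0.06. MT-ND6 had the highest value, from 96.8 and 104 CPM to 169 and 189.8 CPM (log2 fold change 0.84, SE 0.10, adjusted p = 1e-05), and MT-ND3 the lowest, from 452 and 569 CPM to 336 and 372 CPM (log2 fold change -0.53, SE 0.11, adjusted p = 0.00125). The other calls, named after their values were seen, were MT-ND5 (0.73), MT-CO1 (0.39) and MT-CO2 (0.37), which were higher, and MT-CO3 (-0.32), which was lower. In complex IV, MT-CO1 and MT-CO2 were thus higher and MT-CO3 lower. All 12 tested nuclear subunits of this complex had negative values, and 11 of them were called lower. MT-ND5 and MT-ND6 lie on opposite strands next to each other, and the use of strand in counting is not given. The difference between nuclear and mitochondrial subunits was not tested.

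Among 39 tested assembly factors outside the name rule, 14 were lower (35.9%) and 1 was higher (2.56%), with a median of -0.24. Of all genes tested, 20.3% were lower and 21.7% higher. The values ran from UQCC3 of complex III (-1.07) to SCO2, a copper chaperone of complex IV with low counts (0.42, not called). ACAD9, a factor of complex I, was the higher call and is named after its values were seen (log2 fold change 0.36, SE 0.12, adjusted p = 0.0214). The 16 electron carriers, ubiquinone synthesis genes and CYC1 had 5 lower (31.2%) and 1 higher (6.25%), with a median of -0.20. COQ3 was lowest (log2 fold change -0.89, SE 0.28, adjusted p = 0.0186). ETFB, of the electron transfer flavoprotein, was highest (log2 fold change 0.46, SE 0.15, adjusted p = 0.0193). CYC1, cytochrome c1 of complex III, which the name rule misses, was at 261 and 304 CPM in shCON and 175 and 187 CPM in shZDHHC15 (log2 fold change -0.64, SE 0.10, adjusted p = 0.000119). COQ2, PDSS2 and COQ8A, the other lower genes, are named after their values were seen.

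The 18 enzymes of the tricarboxylic acid cycle and pyruvate dehydrogenase deliver NADH to complex I. They had 4 lower (22.2%) and 2 higher (11.1%) and a median of -0.04. The share lower was near the 20.3% of all genes tested, of which 21.7% were higher. IDH3B and IDH3A, subunits of the same isocitrate dehydrogenase, stood at the ends of the list, IDH3B lower (log2 fold change -0.52, SE 0.10, adjusted p = 0.000537) and IDH3A higher (log2 fold change 0.45, SE 0.10, adjusted p = 0.00303). The other lower genes, MDH2, PDHB and CS, and the other higher gene, OGDH, are named after their values were seen. Of 14 outer membrane, import, chaperone and scaffold genes, 9 were lower (64.3%) and 0 higher (median -0.40). TOMM20, an import receptor, fell from 255 and 241 CPM to 126 and 129 CPM (log2 fold change -0.96, SE 0.09, adjusted p = 1.22e-06), and IMMT, which shapes the cristae, had the highest value (log2 fold change 0.08, SE 0.10, adjusted p = 0.526). The members' count stands beside these as 65 lower and 2 higher of 104 (62.5% lower).

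**Figure D4:**
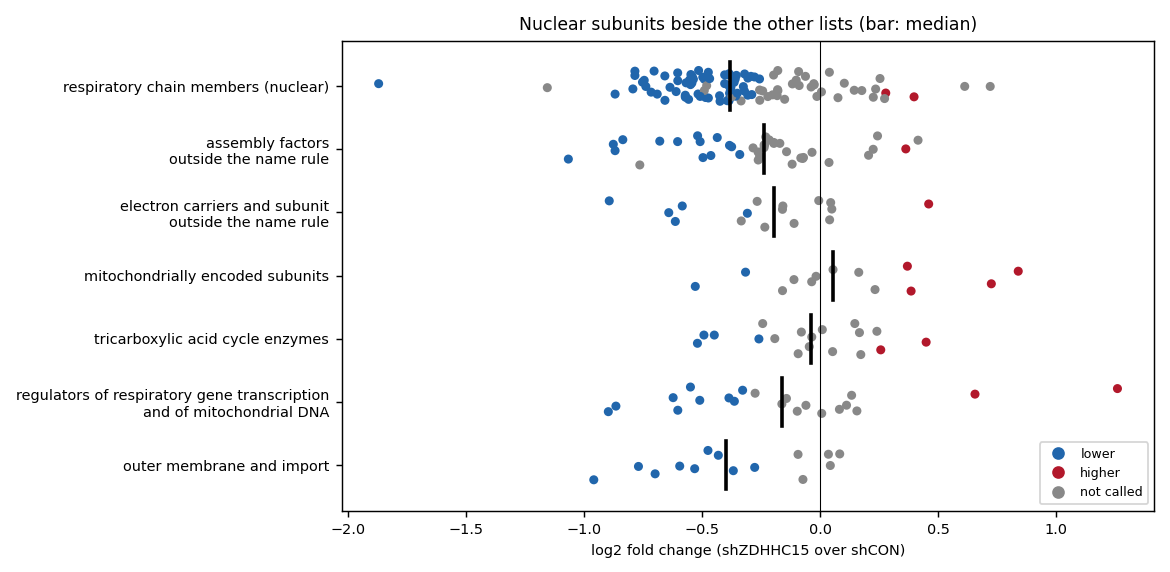
Points are log2 fold changes (shZDHHC15 over shCON) of the tested genes of each list, blue for lower, red for higher and grey for not called, spread vertically only to separate them, and bars are medians. The medians of the nuclear respiratory chain members (-0.38) and of the outer membrane and import genes (-0.40) lie lowest and that of the mitochondrially encoded subunits (0.06) lies highest.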

How the data were processed

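RNA of 4 HCC1954 samples, 2 shCON and 2 shZDHHC15 by the sample labels, was sequenced for the authors by a commercial provider (total RNA, NEBNext Ultra libraries). The deposited table holds raw counts of reads per gene, not normalized, for 58735 genes. The submitters' processing notes name HISAT2, StringTie, SAMtools and hg38, without versions, and the counting tool, annotation and use of strand are not given in the sources used here. All gene identifiers and positions matched GENCODE 29, and the deposited gene length is the union of exons. All 4 columns were used.

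Genes passing filterByExpr (15817) were tested with edgeR 4.0.16 (limma 3.58.1, R 4.3.3, TMM, glmQLFit with legacy = FALSE, glmQLFTest, Benjamini-Hochberg over all genes). The SE is the absolute log2 fold change over the square root of F. The common biological coefficient of variation was 0.0877. Labels of 2 against 2 samples cannot give a two-sided permutation p below 0.333. Between samples of a group the chi-square per degree of freedom was 8.32 (shCON) and 6.79 (shZDHHC15), more than counting noise. A count of 0 allows up to 3 counts, for counting error only. Exon overlaps and near-identical copies (at least 150 bases at 97% identity) were computed from GENCODE 29 with Python 3.11.15. The tests were checked on simulated counts in which few genes changed, and by more than almost all members did. That check cannot show how many changes are found or falsely called at the sizes seen here.

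Members and lists were chosen with earlier results of these data known. Genes named in the text were the 2 lowest and 2 highest of each complex by kind, the higher calls, the core subunits, isoform pairs, assembly factors, the most abundant of each complex per length and the extremes of each list. Alternatives were 3 other scalings (DESeq2 size factors, library size, upper quartile), no filter, at least 10 counts per sample, the DESeq2 1.42.0 Wald test, the legacy quasi-dispersion, a replicate block and leaving out each sample. The values of 2 genes under these rules are not reported here.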

Additional observations from a re-analysis of the deposited data

How the results depend on the processing

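Over 12 alternatives, the 65 lower members kept a negative log2 fold change throughout and 32 of them were called in every fit. The median of all members stayed negative, as did that of each complex. The number lower was 42 with no filter on low counts (30168 genes tested), and the number higher was 1 with DESeq2 size factors, upper-quartile factors, no filter, the DESeq2 Wald test or the legacy quasi-dispersion. With library size only, the medians were -0.22 for complex II and -0.31 for the assembly factors, and the median of all genes was 0.09. Leaving out each sample, a fit in which the lone sample is assumed to vary like the others, gave 42 to 75 lower and 0 to 2 higher members, medians of -0.48 to -0.29 for all members, -0.48 to -0.22 for complex I, -0.38 to -0.26 for II, -0.50 to -0.31 for III, -0.52 to -0.32 for IV, -0.48 to -0.37 for V, -0.48 to -0.31 for structural and -0.44 to -0.28 for assembly genes, and 6 to 11 higher genes in the other lists. Leaving out the 64 tested members with exon overlaps or copies (chosen after seeing the data) gave -0.38, and these results, like the tally over the other lists and the shares of counts without each sample, were not set in advance.

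Members that changed sign were all uncalled. With library size only they were NDUFA9 (0.051), NDUFAF6 (0.048), NDUFAF7 (0.062), NDUFB6 (0.038) and SDHA (0.013). SDHAF3 was -0.00512 with DESeq2 size factors, -0.023 with upper-quartile factors, -0.013 with no filter and -0.00563 with DESeq2. With each sample left out, the ranges were -0.089 to 0.22 for ATP5PD, -0.88 to 0.44 for COX20, -0.31 to 1.01 for NDUFA7, -0.17 to 0.094 for NDUFA9, -0.27 to 0.034 for NDUFAF3, -0.00179 to 0.19 for NDUFAF5, -0.074 to 0.013 for NDUFAF6, -0.14 to 0.073 for NDUFAF7, -0.45 to 0.16 for NDUFB1, -0.15 to 0.036 for NDUFB6, -0.12 to 0.16 for NDUFV3 and -0.30 to 0.36 for SDHAF3. The cause was not tested.

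With the replicate number as a block, 67 members were lower and 3 higher, with a median of -0.38. The deviations of same-numbered samples correlated at 0.0344. Whether same-numbered samples were prepared together is not given, and so few samples cannot show it. At these depths the smallest mean count of a tested member was 12.2, where a change of a few counts cannot be told from noise.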

Other observations

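Subunits that every respiring cell uses are normally abundant, yet the subunit genes NDUFA13, NDUFA7 and NDUFV2 received few counts in all 4 samples. So did the assembly factors COX16 and COX20. In shCON the median tested member was at 62.3 CPM, with 75.7 CPM for structural genes and 22.0 CPM for assembly factors. NDUFA13 had 28, 17, 33 and 48 counts, NDUFA7 10, 23, 17 and 26, NDUFV2 48, 33, 69 and 66, COX16 35, 27, 23 and 25 and COX20 25, 18, 31 and 13, in the order shCON 1, shCON 2, shZDHHC15 1 and shZDHHC15 2. Other annotated genes overlap 21.0%, 33.5%, 28.4%, 36.0% and 72.0% of their exonic bases. The overlapping genes include SYNJ2BP-COX16 with 1 count over all samples and HNRNPU on the opposite strand with 45313. NDUFV2 also has a near-identical copy, NDUFV2P1, over 694 bases, with 279 counts. Fold changes of these 5 genes were not called, and their levels here may not reflect their transcripts. Whether the overlaps bear on the counts was not tested.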
